A study of Bos taurus with 48 samples.

Results

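The liver and the mammary parenchyma of cattle (Bos taurus) were compared in their miRNAs, in animals labelled with the treatment ad libitum or restricted feeding. The samples were chosen by these labels alone. They comprised 24 of the 48 samples of the series: 12 of liver and 12 of mammary parenchyma, with 6 ad libitum and 6 restricted samples in each tissue. Samples of the control treatment and of the mammary fat pad were left out. All samples were put in RNAlater after slaughter, and small RNA libraries were made from total RNA with a kit that ligates adaptors to both ends of the molecule. Each sample is a whole piece of tissue, so it holds the miRNAs of every cell type in it. The labels give no age, sex or breed and do not name the feed. They carry a number per sample that recurs across the tissues with the same treatment, without saying whether it stands for an animal. The p-values given here therefore measure the spread between these samples, part of which may be technical.

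A miRNA is a short RNA that is cut from the stem of a hairpin precursor and guides a silencing complex to matching sites in messenger RNAs. The bases at positions 2 to 8, the seed, do most of the matching, and miRNAs that share a seed form a family. Each hairpin can give a product from its 5′ arm (5p) and one from its 3′ arm (3p). Many miRNAs mark particular cell types. In the liver miR-122 is the main miRNA of hepatocytes, while the miR-200 family, the miR-183 cluster and miR-205 mark epithelial cells such as those that line the mammary ducts.

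Canonical sequences of 8 miRNAs were listed by the study for its cow assays. They cover only part of the range of the tissue difference. Among them are miRNAs that were higher in liver, miRNAs whose levels were close in both tissues and 1 that was lower in liver. They run 5′ to 3′ with T in place of U, and capitals mark the seed.
miR-215-5p: aTGACCTAtgaattgacagaca
miR-451a: aAACCGTTaccattactgagttt
miR-375-3p: tTTTGTTCgttcggctcgcgtga
miR-30c-5p: tGTAAACAtcctacactctcagc
miR-223-3p: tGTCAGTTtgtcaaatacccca
miR-100-5p: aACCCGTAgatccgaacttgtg
miR-708-5p: aAGGAGCTtacaatctagctggg
miR-433-3p: aTCATGATgggctcctcggtgt
The 8 seeds all differ. The assay names miR-451a and miR-30c-5p stand for miR-451 and miR-30c below. The first 5 were higher in liver, with log2 fold changes of 3.77, 2.45, 2.03, 1.55 and 0.60, of which the last, of a miRNA of myeloid cells, turned to -0.13 with libraries scaled to the same sum. miR-100 and miR-708 did not pass the test (log2 fold changes 0.02 ± 0.11 and -0.24 ± 0.20, SE, adjusted p = 0.86 and 0.27), and miR-433, an imprinted miRNA, was lower in liver (-2.79 ± 0.27, adjusted p = 1e-09). Here and below a log2 fold change is the mean of log2(value + 1) in liver minus that in parenchyma, so positive values mean more in liver. The deposited values are normalized read counts, in which each library has a size factor of its own.

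The liver libraries were shallower. The reads assigned to miRNAs, estimated from the smallest step between the values of a library, ranged from 826776 to 5146724 in liver and from 6193678 to 11291532 in parenchyma, with no overlap. In every library the smallest value above 0 stood for 6 reads, so that a miRNA listed at 0 can have had up to 5 reads. Those 6 reads were worth a normalized value of 6.75 to 37.2 in liver and of 1.58 to 3.40 in parenchyma. A low miRNA could thus be listed at 0 in liver at a level at which it was still listed in parenchyma, and the comparison was therefore repeated at equal depth. The labelled tissues matched their defining miRNAs. miR-122 was at 284363 or more in each of the 12 liver samples, and miR-205 was at 7907 or more in each of the 12 parenchyma samples.

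Of 524 miRNAs in the table, 343 had a mean of at least 10 over the 24 samples and were tested with limma. Between the tissues 263 passed an adjusted p of 0.05 (76.7% of those tested). In liver 106 were higher (30.9%) and 157 were lower (45.8%). The median size of the log2 fold change among those that passed was 1.96. The difference exceeded 4-fold (2 on the log2 scale) for 37 of the miRNAs higher in liver and for 91 of those lower in liver. The 12 liver samples all lay above the 12 parenchyma samples for 44 miRNAs (12.8%) and all below them for 94 (27.4%). Values of 0 were taken as listed in these counts. The median log2 fold change over all 343 was -0.39. Where every library was scaled to the same sum instead, that median moved by -0.59 to -0.98, and 69 miRNAs were higher and 208 lower in liver. The 106 miRNAs higher in liver included 69 that stayed higher under this scaling and 2, miR-25 and miR-151-5p, that turned to lower and passed in that direction. Since whole tissue was sequenced, fewer cells of a type and less RNA per cell cannot be told apart in any of these differences.

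**Figure D1:**
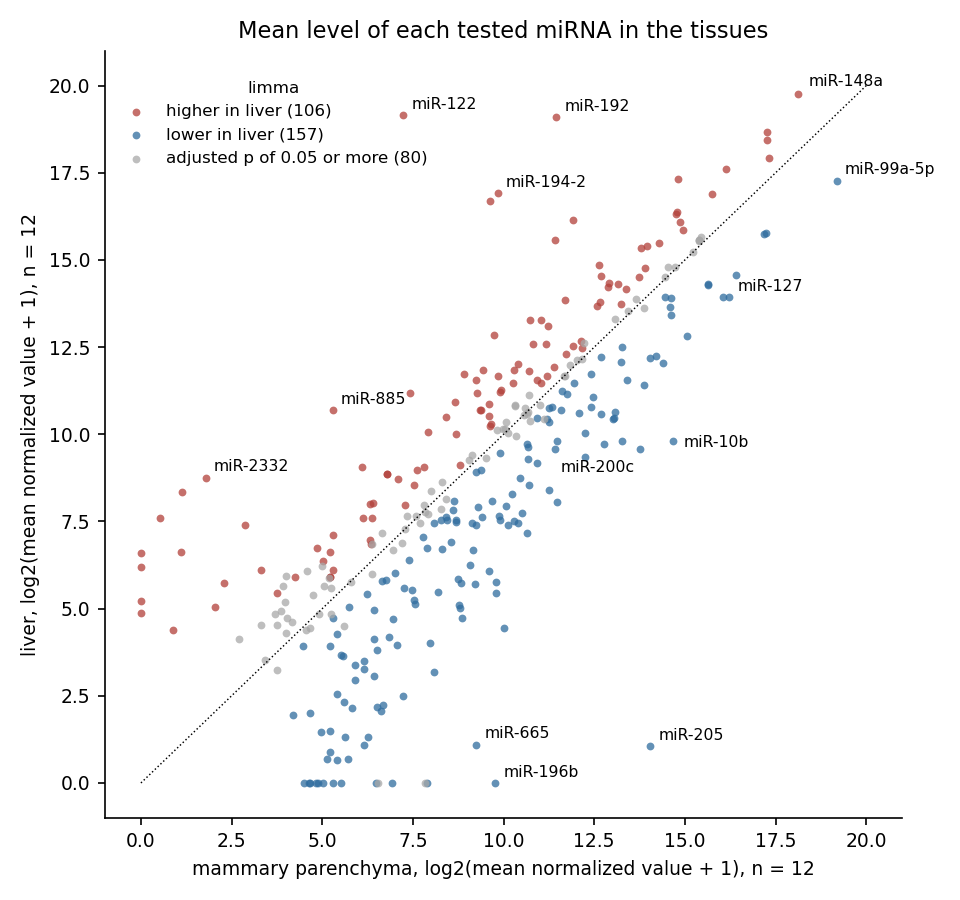
Mean level of the 343 tested miRNAs in mammary parenchyma (horizontal axis) and liver (vertical axis), each as log2(mean normalized value + 1) over 12 samples. Points above the dotted line of equal levels are higher in liver. miR-122, miR-192 and miR-194-2 lie far above it, and miR-205, miR-665 and miR-196b lie near 0 in liver.

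The check for depth left most calls in place. When every library was thinned to 826776 reads and values under 6 reads were set to 0, 101 of the 106 miRNAs higher in liver and 150 of the 157 lower in liver passed again in the same direction. In a second check, chosen after seeing the data, each 0 was replaced by the smallest listed value of its library, which is 1 read more than a 0 can hide. All 106 miRNAs higher in liver passed again, as did 151 of the 157 lower in liver. One call turned in direction, miR-323b-3p, which was at 0 in 4 liver samples (-1.36 against 0.18 with the zeros replaced). This check does move the size of a change. Of the 157 miRNAs lower in liver 89 were above 0 in all 12 liver samples, and the other 68 had at least 1 liver sample at 0, so that their fold changes depend on what stands in for 0. Within the liver no miRNA changed with the number of reads of the library at an adjusted p of 0.05 (limma over 12 samples, 44 of 343 at an unadjusted p under 0.05). Those 44 are a larger share than the 0.05 that such a threshold alone would pass, and 12 samples can miss a weak slope.

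miR-122 and other miRNAs of hepatocytes were far higher in liver. In the list of hepatocyte miRNAs 7 of 8 were higher in liver and 1 was lower, against 30.9% and 45.8% of all tested miRNAs. The median log2 fold change was 4.89 against -0.39 for all tested miRNAs. The values of 7 of the 8 did not overlap between the tissues (over all tested miRNAs 40.2% did not overlap). miR-122, which represses genes across lipid and cholesterol metabolism, ranged from 284363 to 987770.3 (median 559900.0) in liver. In parenchyma it ranged from 12.2 to 506 (median 80.8). The lowest liver sample was thus far above the highest parenchyma sample, and the fitted difference was 12.74 ± 0.51 (SE, adjusted p = 6.8e-17, a 6848-fold difference). Within parenchyma its values were spread over more than an order of magnitude.

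miR-192, miR-194 and miR-215 are made from paired hairpins at 2 loci and are induced by hepatocyte nuclear factor 1 alpha. miR-192 ranged from 326029 to 992138 (median 496081) in liver, while its median in parenchyma was 2881 and its highest value 3246. The tissues did not overlap, and its log2 fold change was 7.58 ± 0.15 (SE, adjusted p = 1.3e-23). miR-194, given by its copy miR-194-2, ranged from 86795 to 152553 (median 125609) in liver against 644 to 1180.0 (median 916) in parenchyma. The hairpins of miR-192 and miR-194-2 neighbour each other, and their log2 fold changes were close (7.58 and 7.08). At the other locus miR-215 lies beside miR-194-1 and rose by less: it ranged from 1559 to 4988 (median 2079) in liver and from 84.9 to 352 (median 153) in parenchyma (3.77 ± 0.21, SE). The log2 fold change listed for miR-194-1 was 7.06. Reads of the copies miR-194-1 and miR-194-2 cannot be told apart by their mature sequence. Neither pair can therefore show how close a copy of miR-194 is to its own neighbour.

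miR-885, another miRNA found mainly in liver, ranged from 642 to 3133 (median 1727) in liver and from 5.48 to 201 (median 18.2) in parenchyma (6.00 ± 0.44, SE, adjusted p = 8.8e-12). miR-101, a repressor of the histone methyltransferase EZH2, ranged from 21611 to 360779 (median 53999) in liver against 1973 to 8501 (median 3345) in parenchyma (3.78 ± 0.35, SE). Its highest liver value came from restricted replicate 8, the liver library with the largest sum of values, and the other 11 reached 75903 at most. Leaving out any single sample kept its log2 fold change between 3.52 and 3.92. miR-483, which lies in the IGF2 gene, was the exception in the list: it ranged from 157 to 742 (median 444) in liver and from 506 to 2216 (median 1481) in parenchyma (-1.76 ± 0.28, SE, adjusted p = 4.6e-06).

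The other miRNAs among the 12 with the largest increases were less abundant. miR-2332 ranged from 67.4 to 1091 (median 308) in liver and was above 0 in 2 parenchyma samples, where it reached 18.7. miR-10225a ranged from 32.9 to 293 (median 191) in liver and reached 3.28 in parenchyma. miR-2411-3p ranged from 29.2 to 1159 (median 156) in liver and reached 6.91 in parenchyma. None of the 3 overlapped between the tissues. miR-12030 and miR-10225b were above 0 in all 12 liver samples and listed at 0 in all 12 parenchyma samples. Against the value of 6 reads per parenchyma library (2.56 on average) they were at least 37.7-fold and 28.3-fold higher in liver. miR-507b and miR-11995 ranged from 37.2 to 149.5 (median 108) and from 94.1 to 327 (median 145) in liver, and neither exceeded 8.29 in parenchyma. The functions of these miRNAs are not given here.

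**Figure D2:**
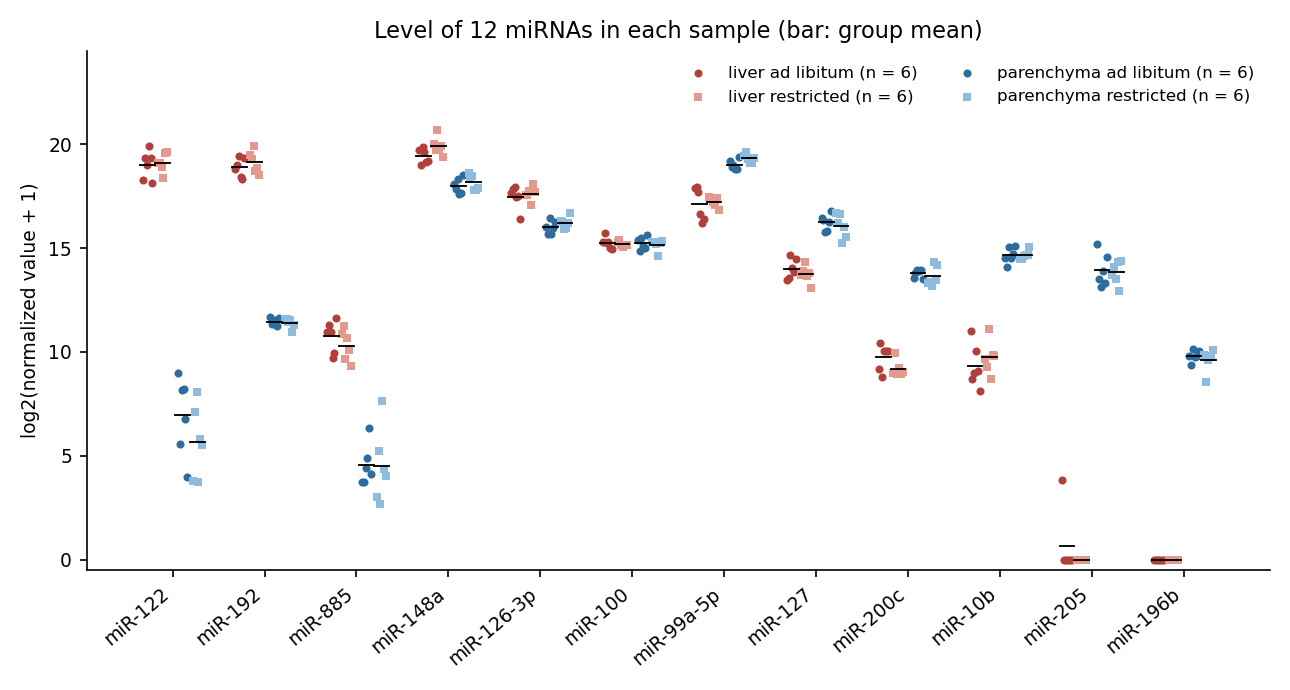
Level of 12 miRNAs in each of the 24 samples, as log2(normalized value + 1), with ad libitum and restricted samples of each tissue side by side (6 per group) and a bar at each group's mean. The tissues are apart for miR-122, miR-192, miR-885 and, in the other direction, for miR-200c, miR-10b, miR-205 and miR-196b, while miR-100 lies at the same level in all 4 groups.

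Some miRNAs were among the most abundant in both tissues. miR-148a took 10.4% to 21.2% (median 15.9%) of the normalized sum of a liver library and 6.93% to 11.0% (median 7.94%) of a parenchyma library. It was higher in liver (1.59 ± 0.15, SE, adjusted p = 1.1e-09), as were miR-26a (1.15 ± 0.11) and miR-143 (1.37 ± 0.13), and the samples of the tissues did not overlap for any of these 3. miR-122 took 5.97% to 16.8% (median 10.1%) of a liver library and miR-192 5.97% to 14.1% (median 9.79%). In parenchyma the most abundant miRNA was miR-99a-5p, with 14.7% to 22.6% (median 18.0%) of a library against 1.45% to 4.93% (median 2.78%) in liver. miR-21-5p, a miRNA raised in proliferating and inflamed tissue, was among the 5 most abundant of parenchyma and was slightly higher in liver with overlapping samples (0.60 ± 0.18, SE, adjusted p = 0.0046). Its direction turned to -0.14 when the libraries were scaled to the same sum.

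The share of the 10 most abundant miRNAs was larger in liver, at 61.7% to 71.8% of a library (median 66.2%), than in parenchyma, at 50.4% to 62.5% (median 57.2%). The means were 66.3% ± 2.82 and 57.1% ± 3.86 (SD, n = 12 each), a difference of 9.13 percentage points (two-sided permutation test with 100000 resamples, p = 2e-05, the smallest they can give). The single most abundant miRNA did not take a larger share in liver, where it held 16.3% ± 2.48 against 17.7% ± 2.11 in parenchyma (SD, n = 12 each, permutation test, p = 0.13). Leaving miR-122 out of the libraries still left a difference of 7.48 points (permutation test, p = 6e-05). Copies of 1 miRNA were counted apart in these shares. Both copies of miR-199a-3p were among the 10 of parenchyma by mean, with medians of 4.74% and 4.59% of a library. The shares with copies merged were not computed.

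Most epithelial miRNAs were lower in liver. Of the 11 members of the epithelial list 9 were lower in liver and 2 were higher, against 45.8% and 30.9% of all tested miRNAs, with a median log2 fold change of -3.52. Their summed level ranged from 9402 to 25698 in liver and from 62502 to 112236 in parenchyma. miR-205, a miRNA of basal and stratified epithelia, ranged from 7907 to 37804 (median 14439) in parenchyma. In liver it was above 0 in 1 of 12 samples, ad libitum replicate 3, at 13.1. Its log2 fold change was -13.58 ± 0.36 (SE, adjusted p = 7.1e-21) and -10.00 with the zeros replaced.

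The miR-200 family, which keeps cells epithelial by repressing ZEB1 and ZEB2, was lower in liver in each of its members. miR-200c ranged from 446 to 1394 (median 587) in liver and from 9102 to 20282 (median 13201) in parenchyma (-4.24 ± 0.18, SE). miR-200a was less reduced and stayed abundant in liver, at 3991 to 19217 (median 5730.2) against 24048 to 49508 (median 34202) in parenchyma (-2.39 ± 0.21, SE). The family comes from a pair of clusters, and the fold changes followed them: miR-200c and its neighbour miR-141 fell by 4.24 and 4.12 on the log2 scale, while miR-200a, miR-200b and miR-429 fell by 2.39, 2.11 and 2.94. The liver and parenchyma samples did not overlap for any of these 5. The miR-183 cluster (miR-182, miR-183 and miR-96) fell by 3.52, 3.65 and 4.01.

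The 2 members of the list that were higher in liver were miR-31 and miR-375. miR-31 ranged from 2228 to 5043 (median 3639.8) in liver and from 1117 to 3187 (median 1346) in parenchyma (1.15 ± 0.17, SE, adjusted p = 8.5e-07). miR-375, a miRNA of endocrine and some epithelial cells, ranged from 82.2 to 240.2 (median 132) in liver and from 15.5 to 98.9 (median 29.7) in parenchyma (2.03 ± 0.29, SE, adjusted p = 9.4e-07). The samples of both tissues overlapped for each.

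miRNAs that lie within the HOX gene clusters were all lower in liver, 4 of 4 against 45.8% of all tested, with a median log2 fold change of -6.47, or -4.53 with the zeros replaced. HOX genes set the identity of body regions, and their miRNAs are expressed along with them. miR-196b was listed at 0 in all 12 liver samples and ranged from 370.2 to 1137 (median 887) in parenchyma, which makes it at least 55.6-fold lower in liver against the value of 6 reads per liver library (15.6 on average). miR-196a, given by its copy miR-196a-2, was likewise at 0 in all liver samples and ranged from 143 to 367 (median 221) in parenchyma, at least 15.0-fold lower in liver. miR-10b ranged from 279 to 2234 (median 713) in liver and from 17472 to 34611 (median 25323) in parenchyma (-5.12 ± 0.27, SE, adjusted p = 1.2e-14). miR-10a, from another HOX cluster, differed far less, with overlapping samples from 1035 to 4629 (median 2849.7) in liver and from 2330.4 to 6214 (median 3804) in parenchyma (-0.49 ± 0.18, SE, adjusted p = 0.016), and it passed neither in the ad libitum nor in the restricted samples alone (adjusted p = 0.11 and 0.058).

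The miRNAs of the imprinted DLK1-DIO3 region, which in mammals are expressed from the maternal chromosome as part of long precursor transcripts, moved together. Of 53 members measured, 48 were tested and all 48 were lower in liver, where 45.8% of all tested miRNAs were. Their median log2 fold change was -2.81, and -2.14 with the zeros replaced. Single members ranged from -8.77 (miR-665) to -1.16 (miR-381), and with the zeros replaced miR-323b-3p alone turned in direction, as given above. For 35 of the 48 the samples of the tissues did not overlap, with values of 0 taken as listed. Over all tested miRNAs 40.2% did not overlap in either direction, and 27.4% had all liver samples below all parenchyma samples. The summed level of the 53 members ranged from 38549 to 93679 in liver and from 134822 to 360268 in parenchyma. miR-127, which lies antisense to the RTL1 gene and represses it, ranged from 8658 to 25775 (median 14467) in liver and from 39354 to 114268 (median 77133) in parenchyma (-2.28 ± 0.18, SE, adjusted p = 4.5e-11). miR-411a (-2.13 ± 0.21, SE) and miR-379 (-1.89 ± 0.22, SE) were the next most abundant. miR-665 was above 0 in 1 liver sample, at 13.7, and ranged from 170.4 to 994 (median 663) in parenchyma. miR-329a, miR-376a, miR-485 and miR-3956, of which the last lies in the same stretch of the genome but not in the list, were also among the 12 largest decreases and were above 0 in 1, 3, 4 and 4 liver samples.

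Of the other large decreases, miR-504 ranged from 0 to 72.1 (median 5.60) in liver and from 439.6 to 1765 (median 1076) in parenchyma (-7.37 ± 0.78, SE, and -5.30 with the zeros replaced). miR-1247-5p was at 0 in all 12 liver samples and ranged from 11.3 to 187 (median 81.3) in parenchyma, at least 5.64-fold lower in liver. miR-212 ranged from 43.6 to 256 (median 149) in parenchyma and was above 0 in 4 liver samples. miR-34c, which p53 induces, ranged from 26.2 to 165 (median 71.5) in parenchyma and was above 0 in 2 liver samples, at 11.2 at most. As listed, none of these overlapped between the tissues. The lowest parenchyma values of miR-1247-5p and miR-34c were below the 37.2 that 6 reads were worth in the shallowest liver library. For these miRNAs a liver value of 0 can therefore hide an overlap.

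**Figure D3:**
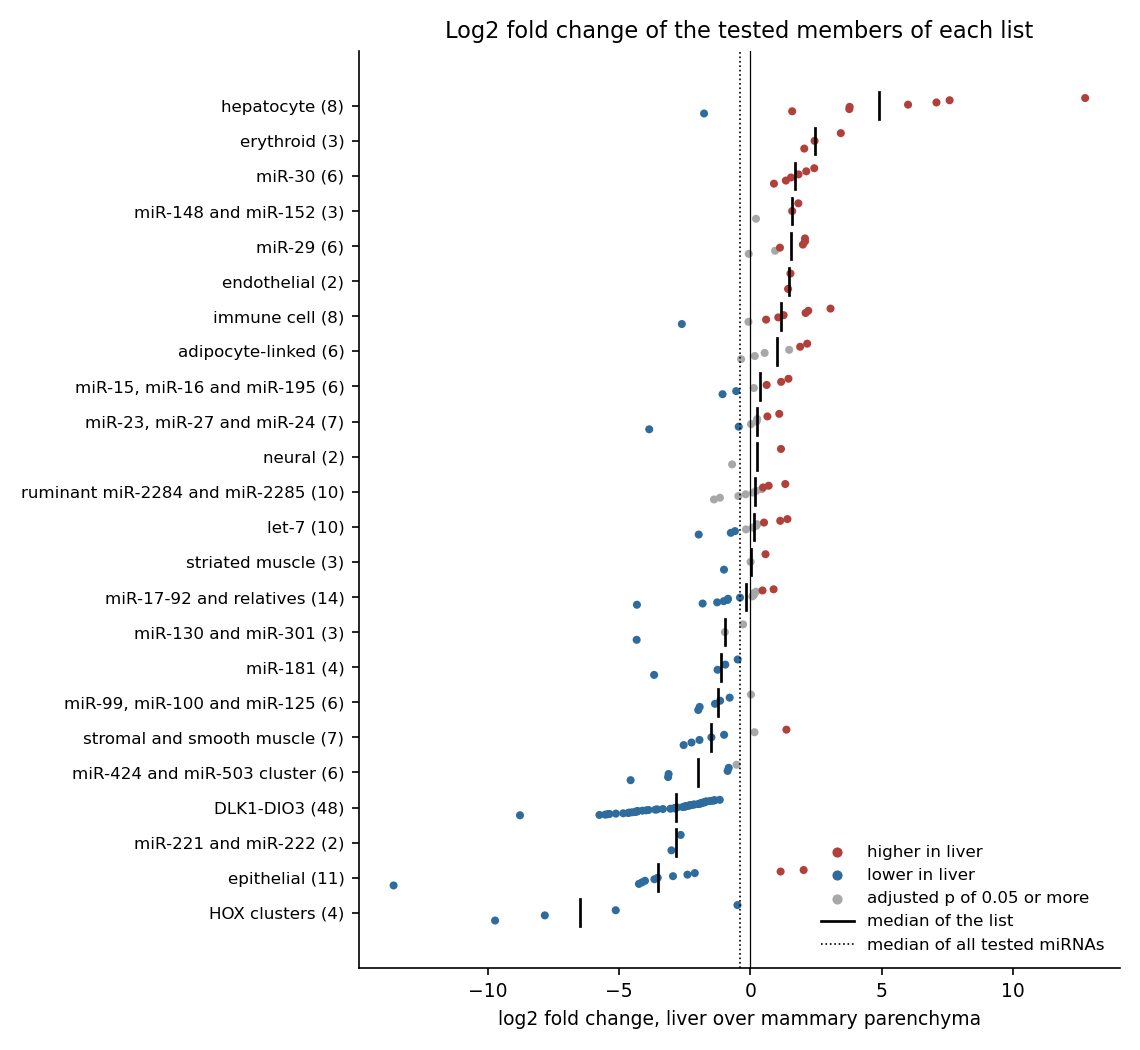
Log2 fold change (liver over mammary parenchyma, horizontal axis) of each tested member of 24 lists of miRNAs, ordered by the list's median (black bar), with the number of tested members in parentheses. The dotted line is the median of all 343 tested miRNAs, -0.39. All 48 tested members of the DLK1-DIO3 list lie to the left of 0, and 7 of 8 hepatocyte members lie to the right. Points of miRNAs at 0 in all samples of a tissue, such as the leftmost HOX members, depend on the 1 added to each value.

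miRNAs of the stroma were split. Of the 7 members of the stromal and smooth muscle list 5 were lower in liver, 1 was higher and 1 did not pass (median -1.48), where 45.8% of all tested were lower. miR-199a and miR-214, which are made from 1 transcript in fibroblasts and other mesenchymal cells, were lower. miR-199a-1-3p ranged from 31357 to 85124 (median 50391) in liver and from 101516 to 187304 (median 162209.6) in parenchyma (-1.48 ± 0.15, SE), and its other arm fell by 1.93. miR-214 fell by 2.24. miR-143 was higher in liver, with 262492 to 765784 (median 398856) against 118701 to 202002 (median 151465) in parenchyma (1.37 ± 0.13, SE), while miR-145, from the same smooth muscle transcript, had a log2 fold change of 0.16 ± 0.18 (SE, adjusted p = 0.42), which turned to -0.58 (adjusted p = 0.013) with libraries scaled to the same sum. The 2 arms of miR-126, a miRNA of endothelial cells, were both higher in liver (1.44 ± 0.15 and 1.53 ± 0.23, SE). Their summed level ranged from 89178 to 285190.4 in liver and from 52569 to 106702 in parenchyma. The main arm, miR-126-3p, ranged from 87097 to 278709 (median 198724) in liver and from 51886 to 104428 (median 70916) in parenchyma, with some overlap.

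miRNAs of blood cells were mostly higher in liver. All 3 erythroid miRNAs were (median 2.45). miR-451, which is cut without Dicer and accumulates in red blood cells, ranged from 1202 to 6697 (median 3206) in liver and from 349.9 to 1757 (median 520.4) in parenchyma (2.45 ± 0.31, SE), and miR-486 ranged from 699.7 to 3330.3 (median 1368) and from 206 to 496 (median 323) (2.05 ± 0.20, SE). miR-144 was low and spread widely, from 0 to 501 (median 25.1) in liver and from 0 to 93.5 (median 0) in parenchyma (3.44 ± 0.78, SE, and 2.82 with the zeros replaced), and after thinning it no longer passed (1.23). The summed level of the 3 ranged from 2095 to 10059 in liver and from 589.8 to 2297 in parenchyma. Of the 8 miRNAs in the immune cell list 6 were higher, 1 was lower and 1 did not pass (median 1.16, and 0.42 with libraries scaled to the same sum). Of all tested miRNAs 30.9% were higher, and miR-223, 1 of the 6, turned to -0.13 under that scaling. Their summed level ranged from 13999.6 to 45499 in liver and from 10018 to 19314 in parenchyma. The part of blood left in the tissues in other differences was not tested. miR-142-5p, made in all blood cell lineages, ranged from 4199.5 to 15943 (median 10046) in liver and from 1048 to 3111 (median 2175) in parenchyma (2.20 ± 0.21, SE).

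The miR-146 pair moved apart. Both are induced in inflammation and come from separate genes. miR-146a ranged from 4013 to 15004 (median 6435) in liver and from 449 to 1295 (median 812) in parenchyma (3.05 ± 0.19, SE, adjusted p = 3.7e-13). miR-146b ranged from 824 to 3023 (median 1289.8) in liver and from 4118 to 10836 (median 8965) in parenchyma (-2.61 ± 0.19, SE, adjusted p = 6.6e-12). Neither overlapped between the tissues, and the directions were opposite.

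The lists of muscle, neural and adipocyte miRNAs were mixed. Over all tested miRNAs 30.9% were higher in liver and 45.8% lower. Of the 3 striated muscle miRNAs tested, miR-133a was lower in liver (medians 136 and 255, adjusted p = 0.00084), miR-499 was higher at an adjusted p of 0.048 (0.58 ± 0.26, SE, but -0.15 with libraries scaled to the same sum), and miR-1 did not pass (0.01 ± 0.40, SE). In the ad libitum samples alone miR-133a had a log2 fold change of -2.02 (limma, adjusted p = 0.00043). In the restricted samples alone it was at 0.01 (limma, adjusted p = 0.97). The call for miR-499 was lost when any of 18 single samples was left out. miR-1 ranged from 64.4 to 2914 (median 1121) in liver and from 412 to 2298 (median 755) in parenchyma, and miR-206, specific to skeletal muscle, was listed at 0 in all 24. The summed level of the muscle list ranged from 184 to 3625 in liver and from 661 to 2650.0 in parenchyma, with a median log2 fold change of 0.01 (-0.72 with libraries scaled to the same sum). In the neural list (median 0.24, and -0.16 with libraries scaled to the same sum) miR-7 was higher in liver (1.17 ± 0.30, SE, adjusted p = 0.001), and miR-9-5p, above 0 in 3 liver and 4 parenchyma samples, had a log2 fold change of -0.69 ± 1.26 (SE, adjusted p = 0.64), while its other arm was too low to be tested. Of the 6 tested miRNAs linked to adipocytes 2 were higher in liver, miR-193b (2.16 ± 0.28, SE) and its neighbour miR-365-3p (1.90 ± 0.20, SE), and 4 did not pass (median 1.01). miR-378, given by its copy miR-378-2, ranged from 4351 to 11924 (median 6073) in liver and from 0 to 15227 (median 3681) in parenchyma (1.48 ± 0.91, SE, adjusted p = 0.15). The parenchyma value of 0 came from restricted replicate 10, and without that sample the log2 fold change was 0.52 (adjusted p = 0.048).

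All 6 tested members of the miR-30 family, which is abundant in differentiated cells, were higher in liver, where 30.9% of all tested miRNAs were, with a median of 1.69 (0.95 with libraries scaled to the same sum). miR-30a-5p ranged from 98600.2 to 266011 (median 133549) in liver and from 20530.0 to 36206 (median 27419.5) in parenchyma (2.43 ± 0.15, SE). miR-30c followed at 32308 to 55506 (median 39413) against 10411 to 20216 (median 14205) (1.55 ± 0.12, SE), and miR-30d rose least (0.90 ± 0.14, SE) and did not pass with libraries scaled to the same sum (0.15, adjusted p = 0.38). Of the 6 members of the miR-29 family, repressors of collagens, 4 were higher in liver and 2 did not pass (median 1.56). miR-29a was the most abundant (1.13 ± 0.20, SE). miR-29b and miR-29e had equal values in all 24 samples and are thus 1 measurement (2.08 ± 0.22, SE). miR-152 rose along with miR-148a (1.83 ± 0.20, SE), while miR-148b, the remaining member of that family, did not pass (0.22 ± 0.13, SE).

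Among the families that were lower in liver, both miR-221 and miR-222, repressors of the cell cycle inhibitor CDKN1B, were lower with no overlap. miR-221 ranged from 762 to 2181 (median 1469.5) in liver and from 7324 to 9648 (median 8619) in parenchyma (-2.65 ± 0.15, SE). miR-222 ranged from 155 to 915 (median 277) and from 1454 to 3055 (median 2470.0). All 4 members of the miR-181 family were lower (median -1.10), where 45.8% of all tested miRNAs were. The most abundant was miR-181a (-0.95 ± 0.16, SE). miR-181b (-0.48 ± 0.12, SE) and miR-181d (-1.25 ± 0.31, SE) were lower too. Of the 6 tested members of the X-linked miR-424 and miR-503 cluster 5 were lower and 1 did not pass (median -1.99). miR-450a-2 (-0.82 ± 0.24, SE) and miR-424-5p (-0.87 ± 0.31, SE) were lower, and miR-450b was at -0.52 ± 0.24 (SE, adjusted p = 0.055).

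The miRNAs related to miR-99 and miR-125 differed by member. Of these 6, 5 were lower in liver and miR-100 did not pass (median -1.25), where 45.8% of all tested miRNAs were lower. With libraries scaled to the same sum miR-100 was lower too (-0.72, adjusted p = 9.1e-07). miR-99a-5p ranged from 75388 to 249230.2 (median 162689) in liver and from 454222 to 805704 (median 584039) in parenchyma (-1.98 ± 0.17, SE, adjusted p = 2.3e-10), and miR-125b fell by 1.34. miR-100 has almost the same sequence as miR-99a, and ranged from 31413 to 54930.0 (median 37695) in liver and from 25013 to 50018 (median 38899.7) in parenchyma. miR-99a lies beside let-7c and miR-100 beside let-7a-2. The log2 fold changes of these neighbours were close to their own: -1.96 for let-7c and -1.98 for miR-99a-5p, 0.22 for let-7a-2-5p and 0.02 for miR-100. Reads of let-7a-2-5p cannot be told from those of the other let-7a copies.

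The remaining families were mixed, where 30.9% of all tested miRNAs were higher in liver and 45.8% lower. Of the 10 miRNAs in the let-7 list, which repress growth genes and rise with differentiation, 3 were higher in liver, 3 were lower and 4 did not pass (median 0.16, and -0.59 with libraries scaled to the same sum). let-7f (1.41 ± 0.28, SE) and let-7g (1.14 ± 0.17, SE) were higher, let-7c was lower (-1.96 ± 0.13, SE), and let-7a-2-5p was at 0.22 ± 0.13 (SE, adjusted p = 0.12). In the miR-17-92 list, made of clusters that MYC induces, 2 of 14 were higher, miR-92a (0.89 ± 0.13, SE) and miR-25 (0.46 ± 0.11, SE, but -0.28 with libraries scaled to the same sum), 7 were lower and 5, among them miR-93 (0.13 ± 0.11, SE), did not pass (median -0.16). Of the 6 members of the miR-15 and miR-16 family 3 were higher, 2 were lower and 1 did not pass (median 0.38, and -0.36 with libraries scaled to the same sum). miR-16a rose (1.17 ± 0.23, SE) and miR-497 fell (-1.06 ± 0.13, SE), while miR-195 did not pass (0.13 ± 0.18, SE). In the clusters of miR-23, miR-27 and miR-24, 2 of 7 were higher, 2 were lower and 3 did not pass (median 0.24, and -0.48 so scaled). miR-27b was higher (1.10 ± 0.14, SE), and miR-24-1-3p and miR-27a-3p were at 0.03 ± 0.11 and 0.26 ± 0.13 (SE). Of the 3 tested members of the miR-130 and miR-301 family 1 was lower, miR-130b (-4.33 ± 0.43, SE, and -1.01 with the zeros replaced), and 2 did not pass, miR-130a and miR-454 (-0.28 ± 0.21 and -0.97 ± 0.67, SE).

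The ruminant family of miR-2284 and miR-2285 was little expressed. Of 49 members measured 10 were tested, and 3 of these were higher in liver and 7 did not pass (median 0.17, and -0.31 with libraries scaled to the same sum). That share is close to the 30.9% higher among all tested miRNAs. miR-2284x ranged from 703 to 3178 (median 1579) in liver and from 775 to 1868 (median 1210.2) in parenchyma (0.43 ± 0.20, SE, adjusted p = 0.056). The next most abundant were miR-2285t and miR-2284y-3, which reached 384 and 189 in liver. miR-2284y-3 passed at an adjusted p of 0.03 (0.48 ± 0.20, SE, but -0.24 with libraries scaled to the same sum), a call that was lost when any of 6 single samples was left out, and miR-2285t did not pass (0.11 ± 0.39, SE). Members of this family are close in sequence, so their reads may be shared.

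Neighbouring hairpins were compared next. Positions were taken from the RefSeq annotation of the assembly ARS-UCD2.0, in which 493 of the 524 miRNAs were found, and used only for the order of the genes. Hairpins within 10 kb of the next formed 40 groups with at least 2 tested hairpins. In 35 of these groups the miRNAs that passed went in 1 direction (15 higher in liver, 20 lower), though in 7 of the 35 only 1 miRNA passed, which leaves 28 groups with at least 2. In 4 groups they went both ways, and in 1 none passed. In 20 groups every tested miRNA passed in the same direction. The largest group, of 42 miRNAs, was in the DLK1-DIO3 region, and another group of that region held 7, all of them lower in liver. In the miR-17-92 cluster, which was among those 4, miR-92a-1 rose by 0.89 on the log2 scale while miR-18a fell by 1.82. The copy miR-92a-2, whose reads cannot be told from those of miR-92a-1, was the only higher miRNA in another of the 4. The pair of miR-16b and miR-15b, chosen after its values were seen, went apart by less (0.62 ± 0.24 and -0.54 ± 0.23, SE), and miR-16b turned to -0.12 with libraries scaled to the same sum. Arms of 1 hairpin and copies of 1 miRNA are not independent, and neighbours share transcripts, so these counts describe the groups and test nothing.

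More miRNAs were detected in parenchyma. Above 0 were 304 ± 24.2 miRNAs per liver sample (SD, n = 12, range 261 to 338) and 403 ± 13.2 per parenchyma sample (SD, n = 12, range 386 to 433), with no overlap and a difference of -99.0 between liver and parenchyma (two-sided permutation test, p = 2e-05, the smallest that 100000 resamples can give). After thinning to equal reads the numbers were 262 ± 9.77 and 302 ± 6.54 (SD, n = 12 each), a difference of -40.6 that still had no overlap (permutation test, p = 2e-05). At a minimum value of 10 the difference was -30.3, and the ranges overlapped. Over all samples, 121 miRNAs were above 0 in parenchyma only and 12 in liver only, and after thinning these numbers were 52 and 30. In all 12 parenchyma samples and in no liver sample, 19 miRNAs were above 0, and after thinning 12.

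**Figure D4:**
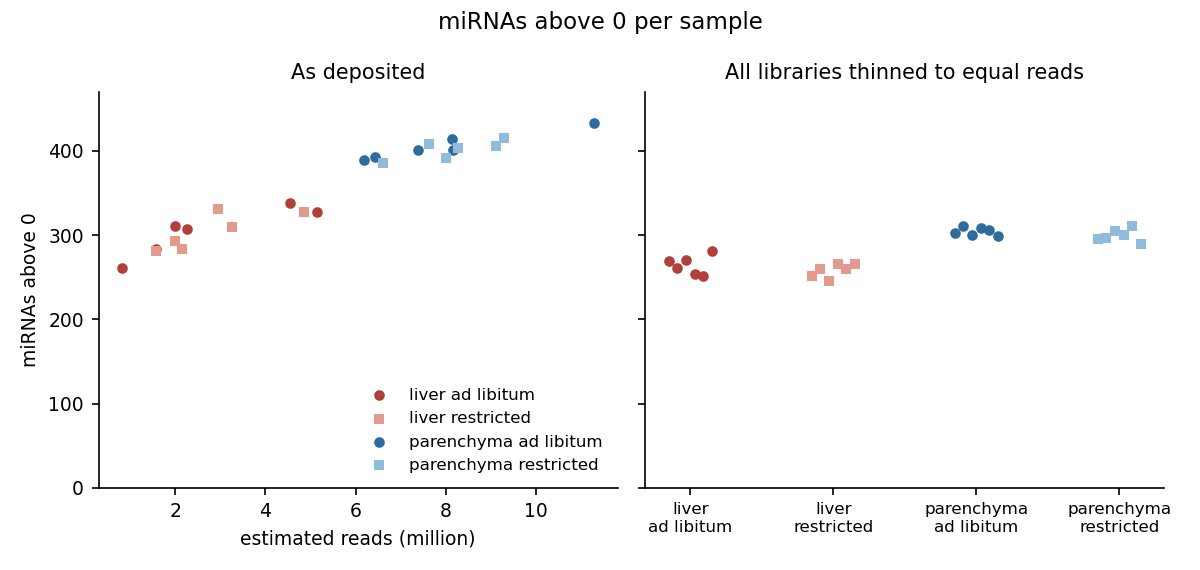
Number of miRNAs above 0 per sample. Left, against the estimated reads of the library. Right, after every library was thinned to 826776 reads, by group (6 samples each). The liver samples lie between 261 and 338 miRNAs as deposited and between 246 and 281 after thinning, and the parenchyma samples between 386 and 433 and between 289 and 311.

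Of those 19 miRNAs, 7 had a mean in parenchyma over 2 times the mean value of 6 reads in liver. They were miR-196b, both copies of miR-196a, miR-1247-5p, miR-412, miR-376b and miR-188. miR-412, an imprinted miRNA of the DLK1-DIO3 region, had a mean of 45.0 in parenchyma, which makes it at least 2.88-fold lower in liver against the mean value of 6 reads per liver library (15.6). For 6 of the 19 the mean in parenchyma was under the mean value of 6 reads in liver. Their means in parenchyma were 7.15 to 15.6, which most of the shallower liver libraries could have listed at 0. In the deepest liver library 6 reads were worth 6.75, and these miRNAs were listed at 0 there as well. Whether they are lower in liver was not tested library by library.

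The ratio of the arms of a hairpin does not depend on the scaling of a library, apart from the 1 added to each value. Of 47 hairpins with both arms in the table, 25 had means of at least 10 for both arms in each tissue. Their log2 ratio of 5p over 3p differed between the tissues for 16 (64%, permutation tests with 100000 resamples and adjustment over the 25), with a higher share of the 5p arm in liver for 10 (40%) and a lower one for 6 (24%). let-7a-1 and let-7a-3, both among the 10, are copies of 1 miRNA and so count 1 measurement 2 times. Among the hairpins that passed, the 3 largest differences towards the 5p arm in liver were of miR-424, miR-193a and miR-1388. For miR-424 the log2 ratio was 2.62 ± 1.83 in liver and 0.35 ± 0.54 in parenchyma (SD, n = 12 each, permutation test, adjusted p = 1e-04). For miR-193a it was 4.14 ± 2.36 and 2.35 ± 0.52, and for miR-1388 2.25 ± 1.79 and 1.37 ± 0.36 (SD, n = 12 each). The 3 largest differences towards the 3p arm were of miR-27a, miR-29d and miR-365. For miR-27a the log2 ratio was -12.17 ± 2.52 in liver and -8.06 ± 0.41 in parenchyma, for miR-29d -1.74 ± 2.30 and 0.32 ± 0.87, and for miR-365 -7.23 ± 2.41 and -5.50 ± 0.72 (SD, n = 12 each).

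Of the 16 hairpins 10 had a minor arm above 0 in all 24 samples. The other 6 were those just named, whose minor arm was at 0 in at least 1 liver sample. With the zeros replaced the differences shrank in each of the 6. They went from 2.26 to 1.83 for miR-424, from 1.79 to 1.06 for miR-193a and from 0.88 to 0.44 for miR-1388, whose minor arm was at 0 in 1 liver sample, ad libitum replicate 6. On the other side they went from -4.11 to -2.21 for miR-27a, from -2.06 to -1.26 for miR-29d and from -1.73 to -0.55 for miR-365, which no longer passed (permutation test, adjusted p = 0.11). After thinning to equal reads miR-424, miR-27a and miR-29d passed again (3.79, -6.13 and -4.95). Thinning sets further values under 6 reads to 0, so these larger sizes depend on what stands in for 0. miR-193a and miR-365 did not (2.68 and -1.57, permutation test, adjusted p = 0.055 and 0.20). The difference of miR-1388 turned to -0.22 (permutation test, adjusted p = 0.85). Of the 10 whose minor arm was above 0 in all 24 samples, 3 are given here that were chosen after their values were seen. miR-423 had a log2 ratio of -1.95 ± 0.35 in liver and -2.70 ± 0.27 in parenchyma, miR-22 one of -4.77 ± 0.37 and -3.93 ± 0.35, and miR-369 one of -3.43 ± 0.67 and -2.28 ± 0.29 (SD, n = 12 each, permutation test, adjusted p = 1e-04 for each). miR-126 and miR-99a, by contrast, had a tissue difference of 0.09 and -0.05 in the log2 ratio (permutation test, adjusted p = 0.79 and 0.86). The major arm was the same in both tissues by the mean ratio for 24 of the 25, the exception being miR-29d.

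**Figure D5:**
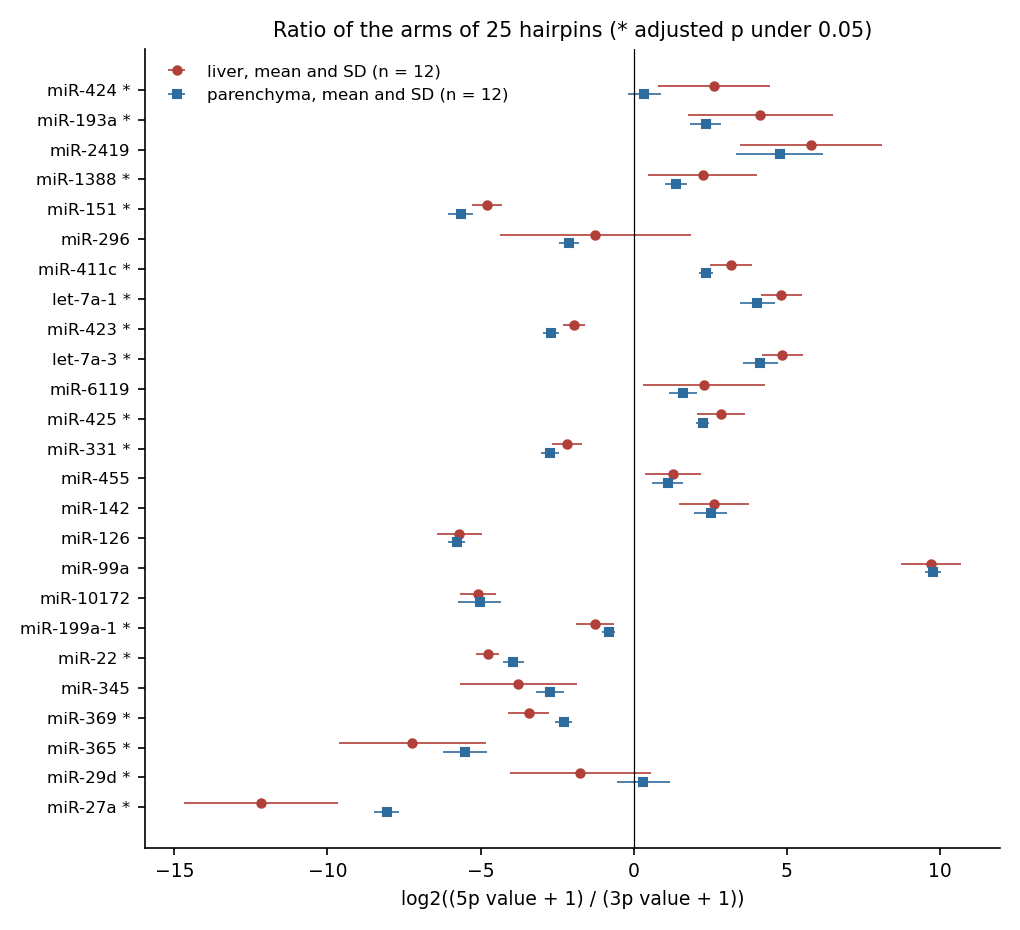
Log2 ratio of the 5p over the 3p value of 25 hairpins (horizontal axis), as mean and SD over 12 liver and 12 parenchyma samples, ordered by the difference between the tissues. Asterisks mark the 16 hairpins with an adjusted p under 0.05. The SD is wide in liver where the minor arm is near 0, as for miR-27a and miR-365, and narrow for miR-423 and miR-22.

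The tissue comparison was repeated within each feeding group. In the ad libitum samples alone 226 miRNAs passed between the tissues, and in the restricted samples alone 239. Both lists shared 212, which is 93.8% of the first and 88.7% of the second, and all 212 had the same direction in both. The log2 fold change of miR-122 was 12.04 ± 0.75 in ad libitum and 13.44 ± 0.65 in restricted samples (SE), and that of miR-205 was -13.31 ± 0.68 and -13.84 ± 0.25. The test of the difference itself, tissue by feeding, gave 0 of 343 miRNAs at an adjusted p of 0.05 (limma, 0%), with 3 at an unadjusted p under 0.05, and limma with voom weights also gave 0, with 5 at an unadjusted p under 0.05. The lowest p was that of miR-133a, whose log2 fold change was -2.02 ± 0.37 in ad libitum and 0.01 ± 0.33 in restricted samples (SE, adjusted p of the difference 0.16). In liver it ranged from 29.9 to 129 in ad libitum and from 143 to 436 in restricted samples, while in parenchyma both groups overlapped, at 199 to 377 and 158 to 383. The next lowest were miR-708 and miR-17-3p (adjusted p of the difference 0.98 for each).

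The spread between samples of 1 feeding group was wider in liver. The median SD over the tested miRNAs was 0.63 in liver and 0.46 in parenchyma on the log2 scale. Over the miRNAs above 0 in all 24 samples it was 0.51 and 0.39, so the gap was also there where no value was at 0. The liver libraries were shallower, and the spread was not compared at equal reads.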

How the data were processed

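Small RNA libraries of cattle liver and mammary tissue were prepared by the authors through adaptor ligation and sequenced. The deposited values are normalized read counts per miRNA from the authors' DESeq2 table. Trim Galore, FastQC and bcl2fastq are also named by the submitters, with no version. For the deposited values the aligner is not given in the sources used here, and neither is the genome build. The table also holds columns of 1 comparison by the authors (mean, log2 fold change, its error, p-values), which were not used. In each library the values were whole multiples of 1 step (tolerance 0.01 steps) and the smallest above 0 was 6 steps, from which 826776 to 11291532 reads per library were estimated. Samples were grouped by the labels for tissue and treatment.

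For the 343 of 524 miRNAs with an average value of 10 or more over the 24 samples, log2(value + 1) was fitted in limma 3.58.1 (R 4.3.3) with a trend in the variance and 4 group means. The contrast was liver minus parenchyma averaged over the feeding groups, with Benjamini-Hochberg adjustment over the 343 (threshold 0.05). The fit was tested on simulated data. Per-sample measures and arm ratios were compared by two-sided permutation tests with 100000 resamples (Python 3.11.15, SciPy 1.17.1). Named miRNAs were the 12 with the largest log2 fold change in each direction (past the threshold, average of 50 or more in either tissue), the 5 most abundant of each tissue, the 3 most abundant measured members of each of 24 lists, the 3 hairpins with the largest arm difference each way, and the 3 lowest p-values for tissue by feeding, with 1 copy per mature name. Other miRNAs are named as further members of a list, as neighbours or where so stated. The members and lists were chosen with earlier results of these data known.

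Sample numbers in the titles recur in both tissues. Each of the 12 numbers carries the same treatment in liver and parenchyma. Over the 12 numbers the correlation of deviations from the group means ranged from -0.14 to 0.32 (median 0.06, 3 over 0.1). A low correlation between unlike tissues cannot show that the samples are unpaired. They were treated as unpaired in the main fit, and pairing by number was run as an alternative. Replicates within a group differed by far more than sampling noise. Alternatives covered scaling, pseudocount, filter, thinning, zeros, a depth covariate, a replicate block, voom weights, the control samples and leaving out single samples.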

Additional observations from a re-analysis of the deposited data

Results flagged for a closer look

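For 48 of 394 groups of 6 values (12.2%) the highest or lowest sample stood far from the others. The measure is the gap to the nearest sample divided by the whole range of the group, on the log2(value + 1) scale, and chance alone would set apart about 1 in 20 groups. No cause was tested for any of these.

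Parenchyma ad libitum replicate 7 stood apart for miR-101-2 (highest, gap ratio 0.682), miR-504 (lowest, 0.626), miR-1247-5p (lowest, 0.644), miR-329a (lowest, 0.674), miR-451 (highest, 0.644), let-7f-2 (highest, 0.682), let-7g (highest, 0.757), miR-181a-1 (lowest, 0.660), miR-222 (lowest, 0.632) and miR-152 (highest, 0.672). Parenchyma restricted replicate 10 stood apart for miR-199a-1-3p (lowest, gap ratio 0.800), miR-100 (lowest, 0.840), miR-378-2 (lowest, 0.901), miR-450a-2 (lowest, 0.771), miR-450b (lowest, 0.648) and miR-497 (lowest, 0.858). Liver restricted replicate 8 stood apart for miR-200a (highest, gap ratio 0.680), miR-199a-1-3p (highest, 0.638), miR-144 (highest, 0.742) and miR-181b-1 (highest, 0.631). Liver ad libitum replicate 15 stood apart for miR-126-3p (lowest, gap ratio 0.676), miR-499 (lowest, 0.679), miR-30a-5p (highest, 0.718) and miR-454 (lowest, 0.761). The sum of values in liver restricted replicate 8, the highest of its group, also stood apart (gap ratio 0.657, 8068257 against a group median of 5569356).

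Liver restricted replicate 5 stood apart for miR-200c (highest, gap ratio 0.719), miR-193a arm ratio (highest, 0.850) and miR-365 arm ratio (lowest, 0.738). Liver ad libitum replicate 6 stood apart for miR-424 arm ratio (highest, gap ratio 0.706) and miR-1388 arm ratio (highest, 0.832). Parenchyma ad libitum replicate 9 stood apart for miR-11995 (lowest, gap ratio 0.681) and miR-29a (highest, 0.719). Liver ad libitum replicate 9 stood apart for miR-27a-3p (lowest, gap ratio 0.823). Liver ad libitum replicate 11 stood apart for miR-10225a (lowest, gap ratio 0.627). Liver restricted replicate 10 stood apart for miR-148b (highest, gap ratio 0.676). Parenchyma restricted replicate 5 stood apart for miR-196b (lowest, gap ratio 0.699). Parenchyma restricted replicate 16 stood apart for miR-10b (highest, gap ratio 0.661).

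In 11 groups a single sample was above 0 and the other 5 were listed at 0, which gives a gap ratio of 1.0: miR-2411-3p in parenchyma restricted replicate 13, miR-507b in parenchyma restricted replicate 4, miR-205 in liver ad libitum replicate 3, miR-665 in liver restricted replicate 10, miR-329a in liver restricted replicate 10, miR-34c in liver ad libitum replicate 9, miR-34c in liver restricted replicate 13, miR-376a in liver restricted replicate 16, miR-9-5p in liver ad libitum replicate 11, miR-130b in liver ad libitum replicate 15 and miR-130b in liver restricted replicate 16. Their values were between 1.60 and 6.86 on the log2(value + 1) scale.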

How the results depend on the processing

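Over the alternatives and single samples left out, between 191 and 335 miRNAs passed between liver and parenchyma, and the tissue by feeding test gave 0 each time it was run. Leaving out single samples gave 254 to 263 miRNAs past the threshold, of which 102 to 107 were higher and 150 to 158 lower in liver. The count of miRNAs higher in liver moved furthest when every library was scaled to the same sum (69 higher, 208 lower). The median log2 fold change of -0.39 moved to -0.98 under that scaling, to -0.63 when the most abundant miRNAs were left out of the sum, to -0.26 with a pseudocount of 10, to -0.53 with no filter (502 miRNAs tested), to -0.081 with a mean of at least 100 (243 tested, 85 higher and 106 lower), to -0.13 with the zeros replaced, to -0.29 with voom weights, and to between -0.47 and -0.32 when a sample was left out, the ends being without liver restricted replicate 16 and without parenchyma restricted replicate 10. The difference in detected miRNAs ranged from -102 to -95.1 without single samples. The share of the 10 most abundant ranged from 8.52 to 9.62 points without single samples and was -1.48 points for the single most abundant miRNA. Of the arm ratios 10 passed when both arms had means of at least 100 (14 hairpins tested), 13 after thinning, 15 with the zeros replaced, 14 with limma, and 11 to 17 without single samples.

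The replicate block, with the number in the title as a term, gave 261 miRNAs (104 higher, 157 lower), with 3 calls lost and 1 gained, and 13 arm ratios with limma. In 1 of 12 cases the sample correlated best with the other sample of its own number. With libraries scaled to the same sum, 4 of the miRNAs named by rule and past the threshold turned in direction. These were miR-21-5p (-0.14), miR-499 (-0.15), miR-25 (-0.28) and miR-2284y-3 (-0.24). Under that scaling 11 other named miRNAs gained and 5 lost their call. Those that gained include miR-100, at 0.02 in the main fit, which then passed as lower in liver. In the restricted samples miR-133a turned to 0.012. With the control samples included miR-200a turned to 1.05. In the 3 control samples of parenchyma it ranged from 17.6 to 66.7, and miR-205 from 4.90 to 53.9. The cause was not tested.

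Depth limits the liver side. A miRNA listed at 0 in liver can have had up to 5 reads, and 6 reads were worth up to 37.2 there, so that decreases of low miRNAs are bounds. The tissues differ in depth without overlap, so a depth effect common to all liver libraries cannot be told apart from tissue except through thinning. Levels are relative within a library, and the scaling sets where 0 lies.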
